A study of Mus musculus with 9 samples.

Results

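The genes described here are the aryl hydrocarbon receptor and its best-known partners and targets: Ahr, Arnt, Ahrr, Tiparp, Cyp1a1, Cyp1b1 and Nqo1. They were taken by name, and all 7 were among the 24062 named genes of the count table. A gene was tested when it exceeded 10 CPM (the count scaled by its column total) in at least 1 library, and 5 of the 7 passed, among 9310 genes in all. Ahrr and Nqo1 did not pass and are given by their values.

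The cells came from F1 male mice of 6 to 10 weeks, heterozygous for a GFP reporter transgene and a Foxp3-IRES-mRFP knock-in that reports the Treg lineage factor Foxp3. Naive CD4+CD62L+ splenic T cells were activated with anti-CD3 and anti-CD28 beads and grown for 3 days in 1 of 2 cultures. The Th17 culture held TGFβ at 5 ng/ml with IL6 at 20 ng/ml, and from it double-positive cells (DP, GFP and RFP) and single-positive cells (SPR, GFP only) were sorted. The Treg culture held TGFβ at 10 ng/ml with IL2 at 5 ng/ml, and from it single-positive Foxp3 cells (SPF, RFP only) were sorted. Each population had 3 libraries, numbered as biological replicates in the labels. The labels do not say whether libraries of 1 number came from 1 culture. DP and SPR libraries of 1 number were taken as pairs because their deviations correlated in these same data, as described with the processing. In any comparison with SPF the population, the cytokine and the TGFβ dose differed together and cannot be told apart.

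AHR is a ligand-activated transcription factor of the bHLH-PAS family that waits in the cytosol with HSP90 and its co-chaperones. Once a ligand such as dioxin or a tryptophan derivative binds, it enters the nucleus, pairs with ARNT and binds xenobiotic response elements, whose core is GCGTG. It switches on enzymes that break down its ligands and proteins that shut it off again, and in T cells it is known for its high level in Th17 cells and for its part in IL22 production.

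Library totals ran from 1495152 to 2447057 counts in DP, from 2323243 to 3759662 in SPR and from 2149540 to 2204236 in SPF. The RFP reporter matched its transcript: Foxp3 was at 77.2 to 130 CPM in DP, 6.38 to 7.33 CPM in SPR and 209 to 244 CPM in SPF. Summed pan T cell markers were at 3101 to 3846 CPM in DP, 3496 to 4441 CPM in SPR and 4352 to 5015 CPM in SPF. Summed B cell markers were at 4.21 to 5.35 CPM in DP, 3.01 to 7.18 CPM in SPR and 14.4 to 27.45 CPM in SPF, with Cd79b holding most of them. Of 5 myeloid markers 3 had counts in each population, and their sum was at 0.841 to 2.04 CPM in DP, 1.29 to 3.49 CPM in SPR and 3.72 to 11.3 CPM in SPF, where Itgam held 41 counts, while Csf1r and Cd14 were at 0 in every library. Summed erythroid markers were at 0.409 to 0.669 CPM in DP, 0 to 0.43 CPM in SPR and 0, 8.84 and 19.98 CPM in SPF libraries 1, 2 and 3, mostly from Hba-a1. The mitochondrial rRNA mt-Rnr2 was high in DP libraries 2 and 3, at 67.3, 572 and 1712 CPM in libraries 1, 2 and 3, against 25.0 to 61.4 CPM in SPR and 93.0 to 215 CPM in SPF. The part of these markers in the results below was not tested.

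The stretches just upstream of 4 genes that AHR is known to induce are shown because they hold the letters the receptor binds. Each is the 250 bases before the start that RefSeq gives on GRCm38.p6, printed 5′ to 3′ on the gene's strand: Ahrr at chr13:74292332-74292581 on the minus strand, Tiparp at chr3:65528197-65528446 on the plus strand, Cyp1a1 at chr9:57697363-57697612 on the plus strand and Cyp1b1 at chr17:79715062-79715311 on the minus strand. Capitals mark GCGTG, or CACGC where it lies on the other strand.
Ahrr: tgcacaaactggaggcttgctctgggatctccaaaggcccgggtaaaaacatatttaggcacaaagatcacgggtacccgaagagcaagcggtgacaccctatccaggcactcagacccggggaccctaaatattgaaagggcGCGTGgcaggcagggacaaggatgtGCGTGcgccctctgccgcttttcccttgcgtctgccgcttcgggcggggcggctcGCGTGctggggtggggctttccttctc
Tiparp: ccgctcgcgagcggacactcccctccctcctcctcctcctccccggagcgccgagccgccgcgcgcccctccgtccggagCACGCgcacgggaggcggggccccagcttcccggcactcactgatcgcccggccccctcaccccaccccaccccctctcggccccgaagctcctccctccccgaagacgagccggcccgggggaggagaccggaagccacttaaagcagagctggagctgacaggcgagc
Cyp1a1: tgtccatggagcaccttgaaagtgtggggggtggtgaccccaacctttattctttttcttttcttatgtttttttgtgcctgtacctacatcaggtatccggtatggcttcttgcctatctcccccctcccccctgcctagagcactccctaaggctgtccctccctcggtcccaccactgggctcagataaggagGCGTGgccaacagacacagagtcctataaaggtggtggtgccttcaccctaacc
Cyp1b1: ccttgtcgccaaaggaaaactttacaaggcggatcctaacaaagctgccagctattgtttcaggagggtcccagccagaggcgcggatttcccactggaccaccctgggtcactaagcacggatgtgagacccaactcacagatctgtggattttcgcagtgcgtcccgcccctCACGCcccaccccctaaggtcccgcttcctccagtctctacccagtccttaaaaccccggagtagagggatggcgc

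Ahrr held 3 such cores and Tiparp, Cyp1a1 and Cyp1b1 held 1 each, at 54 bases before the start in Cyp1a1. In the windows of the other matched members, Arnt held 1 and Nqo1 held 0. GCGTG on either strand was present in 28.2% of all 32851 windows of this length, so its presence is a description only. The longer form TNGCGTG, which contains the core, was found once in Ahrr and in 4.1% of all windows.

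**Figure D1:**
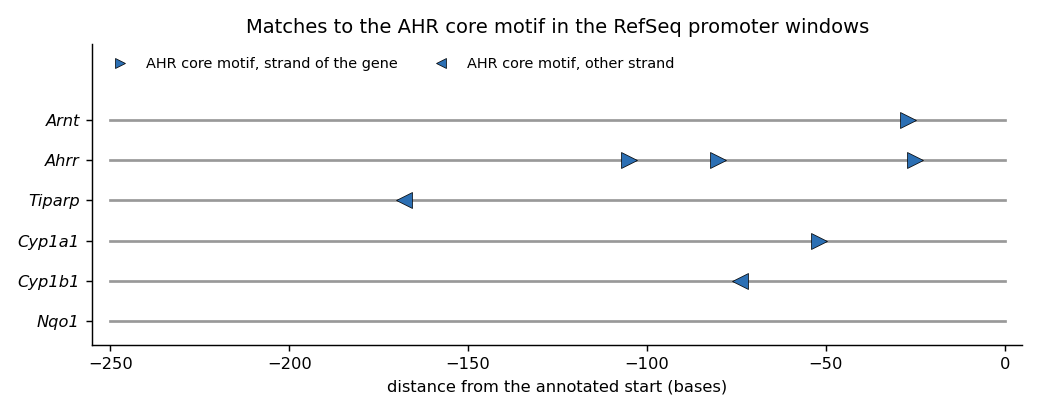
Position of each GCGTG match, in bases before the annotated start, in the windows of the 6 members that matched the promoter table. Ahrr holds 3 matches and Nqo1 none.

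The receptor itself was several-fold higher in both populations of the Th17 culture than in SPF. Ahr (chromosome 12, 35497974 to 35535038, minus strand, with all gene positions from GENCODE M21 on GRCm38) was at 161, 118 and 117 CPM in DP libraries 1, 2 and 3, at 88.3, 91.7 and 105 CPM in SPR libraries and at 13.6, 6.05 and 17.7 CPM in SPF libraries. All 3 groups were apart, with DP libraries the highest and SPF libraries the lowest. Separation of this kind was common among the 9310 tested genes. It held for 14.5% of them in DP against SPR. With SPF as the other group, it held for 31.6% in DP and 36.9% in SPR. Later statements on overlap are to be read beside these shares. The means of Ahr were 132 ± 24.9 CPM for DP, 95.1 ± 9.02 CPM for SPR and 12.4 ± 5.89 CPM for SPF (SD, n = 3 each). Ahr was 10.1-fold higher in DP than in SPF (log2 fold change 3.33, SE 0.295, edgeR quasi-likelihood test with Benjamini-Hochberg adjusted p = 0.000131). It was 7.54-fold higher in SPR than in SPF (log2 fold change 2.92, SE 0.292, edgeR adjusted p = 0.000172). In libraries of sorted populations, fewer cells with a transcript and less of it per cell cannot be told apart.

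Between the 2 populations of the Th17 culture the difference in Ahr did not pass the test. DP was above SPR in each of the 3 pairs, by 1.82, 1.29 and 1.11 times, the widest being pair 1. The log2 fold change was 0.42 (SE 0.249, edgeR adjusted p = 0.844), and with the replicate number as a block it was 0.42 (SE 0.154, edgeR adjusted p = 0.197).

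Arnt, the partner that AHR needs to bind DNA (chromosome 3, 95434388 to 95497240, plus strand), had similar means in the 3 populations, with 29.6 ± 6.38 CPM for DP, 30.2 ± 5.83 CPM for SPR and 32.1 ± 5.35 CPM for SPF (SD, n = 3 each). It was at 31.5, 22.5 and 34.8 CPM in DP, at 25.5, 28.4 and 36.7 CPM in SPR and at 37.7, 27.0 and 31.6 CPM in SPF. All 3 groups overlapped, and none of the comparisons passed the test. The log2 fold change was -0.20 in DP against SPF (SE 0.239, edgeR adjusted p = 0.614), -0.10 in SPR against SPF (SE 0.234, edgeR adjusted p = 0.808) and -0.10 in DP against SPR (SE 0.236, edgeR adjusted p = 1).

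**Figure D2:**
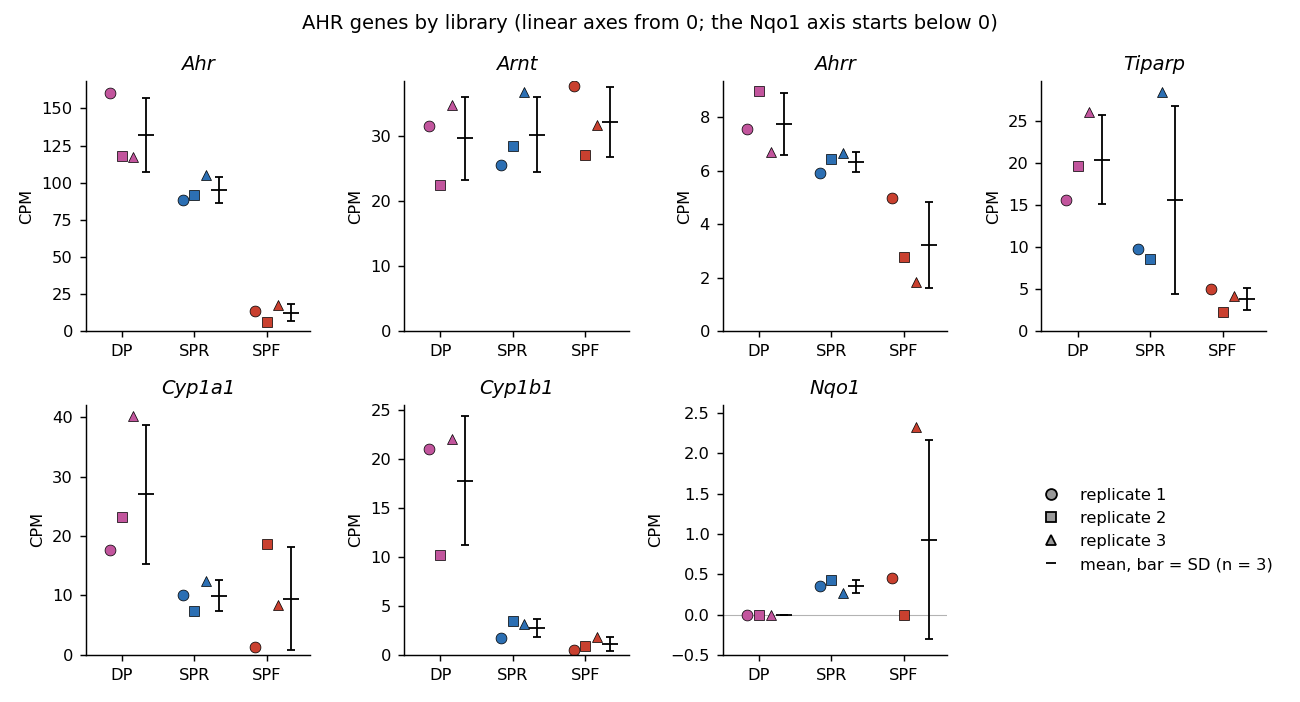
CPM of each of the 7 members in the 3 DP, 3 SPR and 3 SPF libraries, 1 point per library, with the mean and SD of each group beside the points. The DP libraries of Ahr sit between 117 and 161 CPM, all above the SPR and SPF libraries.

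Of the feedback genes, Tiparp was higher in both populations of the Th17 culture than in SPF. Tiparp, an ADP-ribosyltransferase that modifies and restrains AHR (chromosome 3, 65528410 to 65555518, plus strand), was at 15.6, 19.6 and 26.1 CPM in DP, at 9.77, 8.61 and 28.5 CPM in SPR and at 4.99, 2.33 and 4.18 CPM in SPF. Every DP and SPR library was above every SPF library, and SPR library 3 stood well above the other 2 SPR libraries. Tiparp was 4.99-fold higher in DP than in SPF (log2 fold change 2.32, SE 0.536, edgeR adjusted p = 0.0186) and 4.08-fold higher in SPR than in SPF (log2 fold change 2.03, SE 0.53, edgeR adjusted p = 0.025). Both calls were lost when certain single libraries were left out. The edgeR adjusted p for DP against SPF was 0.0536 without DP library 2, 0.0539 without DP library 3 and 0.0763 without SPF library 2, and for SPR against SPF it was 0.0937 without SPR library 3, where the log2 fold change was 1.21, and 0.0949 without SPF library 2. DP and SPR overlapped, DP being 1.59 and 2.28 times SPR in pairs 1 and 2 and 0.916 times SPR in pair 3 (paired log2 fold change 0.46, SE 0.272, edgeR adjusted p = 0.476). The antisense pseudogene 4931440P22Rik overlaps Tiparp and had 80 counts in all 9 libraries together. Whether the counting kept the strands apart is not known here, so their reads may be mixed.

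Ahrr, the repressor that competes with AHR for ARNT (chromosome 13, 74211118 to 74292331, minus strand), was low in every library. It had 18, 22 and 10 counts in DP, 17, 15 and 25 counts in SPR and 11, 6 and 4 counts in SPF, or 7.57, 8.99 and 6.69 CPM in DP, 5.93, 6.46 and 6.65 CPM in SPR and 4.99, 2.79 and 1.86 CPM in SPF. All DP and SPR libraries were above all SPF libraries, while the lowest DP and the highest SPR libraries nearly met. With no filter on low counts, where 20041 genes entered, 10.7% of all genes were called between DP and SPF, 12.4% between SPR and SPF and 1.05% between DP and SPR. In that fit the log2 fold change of Ahrr was 1.20 in DP against SPF (SE 0.523, edgeR adjusted p = 0.143), 0.96 in SPR against SPF (edgeR adjusted p = 0.277) and 0.24 in DP against SPR (edgeR adjusted p = 0.989), so none of the 3 passed.

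The cytochrome P450 genes Cyp1b1 and Cyp1a1, the classical readouts of AHR activity, were higher in DP than in SPR within pairs. Neither passed edgeR in DP against SPR over all 9 libraries with the filter, and AHR activity itself was not tested. Cyp1b1, an oxidase of hydrocarbons and steroids (chromosome 17, 79701537 to 79715061, minus strand), was at 21.03, 10.2 and 22.1 CPM in DP, at 1.75, 3.44 and 3.19 CPM in SPR and at 0.454, 0.93 and 1.86 CPM in SPF, from 50, 25 and 33 counts in DP, 5, 8 and 12 counts in SPR and 1, 2 and 4 counts in SPF. The DP libraries lay above all others, and SPR and SPF overlapped. Cyp1b1 passed the filter only through its DP libraries, where it was higher, so its comparisons with DP are descriptions. It was 14.9-fold higher in DP than in SPF (log2 fold change 3.90, SE 0.588, edgeR adjusted p = 0.00278). In SPR against SPF the log2 fold change of 1.31 did not pass (SE 0.652, edgeR adjusted p = 0.19).

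Against SPR, also of the Th17 culture, Cyp1b1 in DP was 12.1, 2.97 and 6.92 times as high in pairs 1, 2 and 3. Over all 9 libraries without the pairing, the log2 fold change of 2.59 did not pass (SE 0.499, edgeR adjusted p = 0.222). Within pairs Cyp1b1 was 6.10-fold higher in DP than in SPR (log2 fold change 2.61, SE 0.395, edgeR adjusted p = 0.00434). Without pair 1 the paired log2 fold change was 2.23 and the edgeR adjusted p was 0.0505.

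Cyp1a1, the best-known AHR-induced enzyme (chromosome 9, 57687928 to 57703824, plus strand, where the RefSeq start of the printed window lies inside this longer GENCODE gene), was at 17.7, 23.3 and 40.1 CPM in DP, at 10.1, 7.32 and 12.5 CPM in SPR and at 1.36, 18.6 and 8.37 CPM in SPF. All DP libraries were above all SPR libraries, and SPF libraries overlapped both. DP was 1.75, 3.18 and 3.21 times SPR in the 3 pairs, and within pairs Cyp1a1 was 2.55-fold higher in DP (log2 fold change 1.35, SE 0.259, edgeR adjusted p = 0.0176). The same log2 fold change did not pass over all 9 libraries (SE 0.604, edgeR adjusted p = 0.756), nor within pairs with DESeq2 (adjusted p = 0.0608) or without pair 3 (log2 fold change 1.16, edgeR adjusted p = 0.154). In DP the libraries with more Cyp1a1 also had more mt-Rnr2, at the values given above, and its part in the result was not tested.

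In SPF, Cyp1a1 varied 13.7-fold between the lowest and the highest library, with 3, 40 and 18 counts in libraries 1, 2 and 3. Only 98 of 9141 tested genes counted in every SPF library, or 1.07%, had a larger ratio, and the median ratio was 1.49. SPF library 2 held the most Cyp1a1 and the least Ahr of the 3. Against this spread, the log2 fold change was 1.42 in DP against SPF (SE 0.623, edgeR adjusted p = 0.152) and 0.07 in SPR against SPF (SE 0.636, edgeR adjusted p = 0.958), and neither passed. With no filter, DP against SPF passed for Cyp1a1 (edgeR adjusted p = 0.00147), the lowest over its alternatives, which ran up to 0.729.

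Nqo1, a quinone reductase that both AHR and the oxidative stress factor NRF2 can induce (chromosome 8, 107388225 to 107403206, minus strand), was almost absent. It had 0, 0 and 0 counts in DP, 1, 1 and 1 counts in SPR and 1, 0 and 5 counts in SPF. SPF library 3 held 5 of the 9 counts. DP and SPF overlapped at 0, and with no filter DP against SPF did not pass for Nqo1 (edgeR adjusted p = 0.15). SPR held 0.363 times the SPF level, with an exact 95% counting interval of 0.0588 to 1.70, and DP and SPR were both at or under the floor of 3 counts, so no fold is given between them.

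**Figure D3:**
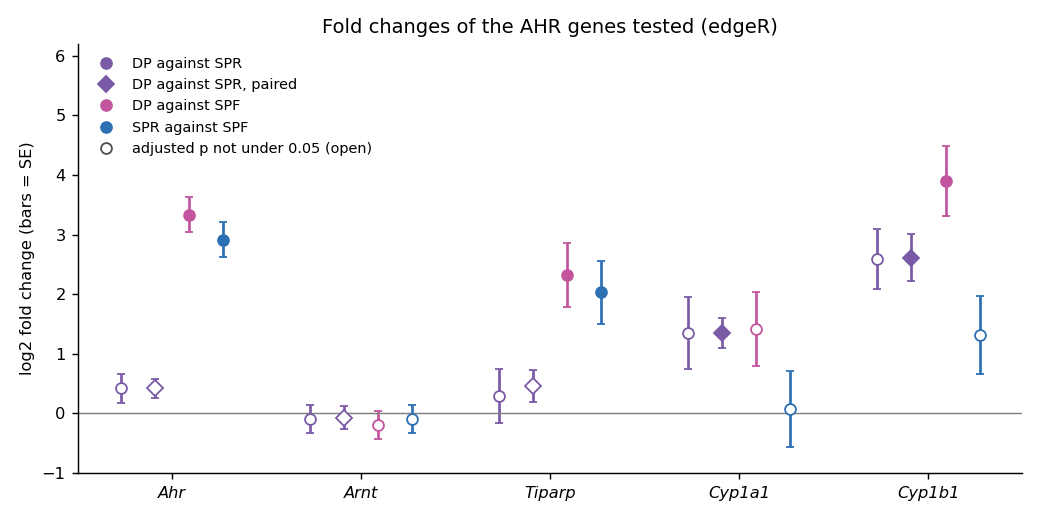
Log2 fold change with its SE for the 5 tested members in DP against SPF, SPR against SPF, DP against SPR and DP against SPR within pairs. Filled points passed at an adjusted p of 0.05, and Ahr, Tiparp and Cyp1b1 are filled in DP against SPF.

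Counted together, 3 of the 5 tested members were higher in DP than in SPF and none lower, where 13.7% of all tested genes were called and 7.55% were called higher. Of these 3, Cyp1b1 had entered the tested set only through DP, and Tiparp only through DP and SPR, the populations where they were higher, so the count is a description. In SPR against SPF 2 were higher and none lower, where 16.7% of genes were called and 9.14% higher. In DP against SPR, 0 of 5 passed edgeR over 9 libraries, where 0.0107% of genes were called. Of the 5, 2 had an unadjusted p under 0.05 in that comparison and 1 passed with DESeq2, which called 44 of 9310 genes. Within pairs 2 were higher in DP, where 3.48% of genes were called and 1.97% higher. Cyp1b1 is 1 of these 2, and Tiparp is 1 of the 2 in SPR against SPF, so these counts are descriptions as well. Ahr and Tiparp passed against SPF in both populations and Cyp1b1 passed in DP. These comparisons share the SPF libraries and do not measure the difference between DP and SPR. That difference was tested directly over 9 libraries, where 0 of 5 passed edgeR, and within pairs, where 2 passed. The second result depends on taking equal replicate numbers as pairs.

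**Figure D4:**
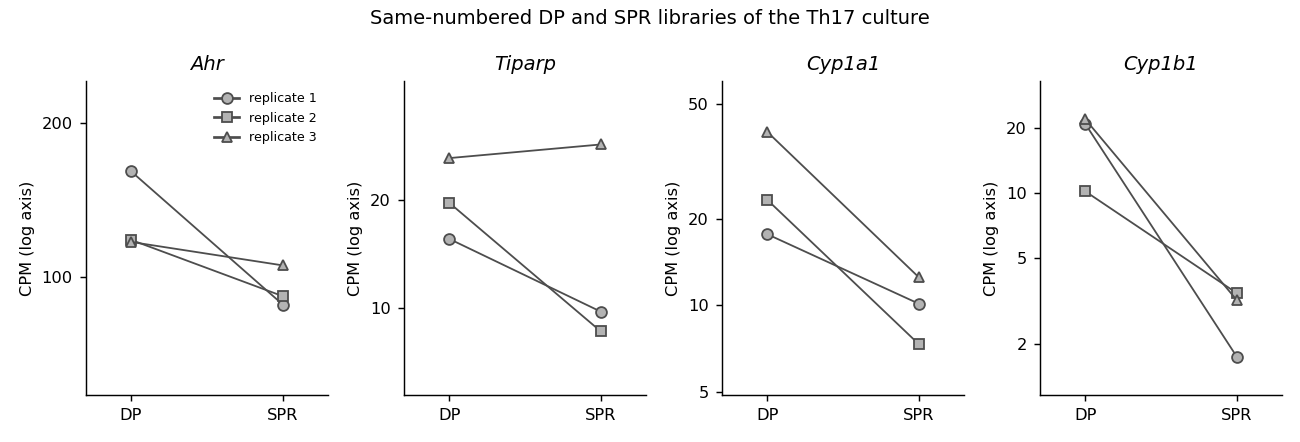
CPM of Ahr, Tiparp, Cyp1a1 and Cyp1b1 in same-numbered DP and SPR libraries of the Th17 culture, joined by lines. Cyp1a1 and Cyp1b1 are higher in DP in all 3 pairs.

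Other genes of the pathway were taken from 6 lists of 46 genes, of which 41 were in the table and 29 were tested. Over the 6 lists, 10 genes were higher and 1 lower in DP against SPF, and 11 were higher and 4 lower in SPR against SPF, where the shares over all tested genes were 13.7% called and 7.55% higher for DP, and 16.7% called and 9.14% higher for SPR. In DP against SPR over 9 libraries 0 passed edgeR, 3 had an unadjusted p under 0.05 and 1, Ncoa3, passed with DESeq2, and within pairs 2 were higher and 1 lower, beside 3.48% of all genes called. The counts of each list are to be read beside these shares. Gstm1, Il21, Il10 and Hmox1 entered the tested set only through DP and SPR libraries, and Osgin1 only through SPF libraries, where each was high.

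Several genes of proteins that bind AHR, chaperones of its cytosolic complex and subunits of a ubiquitin ligase, were higher in the Th17 culture. Of these 6 genes, 3 were higher in DP than in SPF and 4 were higher in SPR than in SPF, with median log2 fold changes of 0.78 and 0.76 beside 0.01 and 0.00 over all tested genes. Hsp90aa1, the inducible HSP90, was at 167, 199 and 116 CPM in DP, at 95.3, 175 and 98.4 CPM in SPR and at 64.4, 46.5 and 57.6 CPM in SPF. SPF libraries were below all others, by a log2 fold change of 1.45 for DP (SE 0.269, edgeR adjusted p = 0.00708) and 1.10 for SPR (SE 0.267, edgeR adjusted p = 0.0177). Hsp90ab1, the constitutive HSP90, had a log2 fold change of 0.92 in DP (edgeR adjusted p = 0.0189) and 1.29 in SPR (edgeR adjusted p = 0.0028) against SPF. Ptges3, which encodes p23, had 0.91 in DP against SPF (edgeR adjusted p = 0.0198), and Ddb1, of a ubiquitin ligase that AHR can join, had 0.77 in SPR against SPF (edgeR adjusted p = 0.0237). Without 1 library the edgeR adjusted p was up to 0.0748 for Hsp90ab1 and 0.0813 for Ptges3 in DP, and up to 0.0755 for Hsp90aa1 and 0.096 for Ddb1 in SPR.

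Of the wider detoxification genes, 3 of 6 were in the table and 1, Gstm1, was tested. Gstm1, a glutathione transferase, was at 7.15, 12.7 and 10.0 CPM in DP, at 9.07, 20.7 and 24.7 CPM in SPR and at 0, 2.33 and 0.929 CPM in SPF. Both populations of the Th17 culture lay above SPF, with a log2 fold change of 3.07 in DP (SE 0.725, edgeR adjusted p = 0.0202, or 0.0746 without DP library 2) and 3.99 in SPR (SE 0.691, edgeR adjusted p = 0.00346). Ugt1a6a had 1 count and Aldh3a1 had 0 counts over all 9 libraries.

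Among 7 T cell genes linked to AHR, 5 were tested. Of these, 3 were higher in DP than in SPF, and 3 were higher and 1 lower in SPR than in SPF. The 3 higher genes were Il21, Il10 and Maf in both. The log2 fold changes for Il21 were 5.98 in DP (SE 0.559) and 5.90 in SPR (SE 0.557), and for Maf 4.19 in DP and 4.02 in SPR. Il21 had 270 counts in DP, 358 in SPR and 4 in SPF, so the size of its fold rests on few SPF counts. Il10 had 93 counts in DP, 332 in SPR and 3 in SPF. Within pairs, Il10 was lower in DP than in SPR (log2 fold change -1.503, edgeR adjusted p = 0.00341). Entpd1, which encodes the ectonucleotidase CD39, was at 40.0, 18.8 and 34.8 CPM in DP, at 22.3, 8.18 and 14.1 CPM in SPR and at 62.6, 31.2 and 41.4 CPM in SPF. All SPR libraries were below all SPF libraries, and DP libraries overlapped both. Its log2 fold change was -1.60 in SPR against SPF (SE 0.387, edgeR adjusted p = 0.0174) and 1.04 in DP against SPR within pairs (SE 0.213, edgeR adjusted p = 0.0243, and 0.142 with DESeq2). Without 1 library or pair these reached 0.0601 and 0.154. Il22, the cytokine most closely tied to AHR, had 11 counts in all, 10 of them in SPR library 2 and 1 in DP. The gut-homing receptor gene Gpr15 had 10 counts in DP, 3 in SPR and 0 in SPF.

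The genes of NRF2 and its targets differed in direction, and Nqo1 is a target that NRF2 shares with AHR. The list also holds Nfe2l2, which encodes NRF2, and Keap1, which encodes its inhibitor. Of 10 genes 8 were tested, and 2 were higher and 1 lower in each of DP and SPR against SPF, with median log2 fold changes of 0.19 and 0.37. Gsr, glutathione reductase, was at 37.0, 33.9 and 34.8 CPM in DP, at 31.1, 44.8 and 41.2 CPM in SPR and at 9.98, 5.12 and 13.0 CPM in SPF. Gsr had a log2 fold change of 1.84 in DP (SE 0.29, edgeR adjusted p = 0.00336) and 2.03 in SPR (SE 0.287, edgeR adjusted p = 0.00108) against SPF. Hmox1, heme oxygenase 1, had 52 counts in DP, 59 in SPR and 3 in SPF, and passed in DP (edgeR adjusted p = 0.0151) and SPR (edgeR adjusted p = 0.0128). Osgin1 was lower, by log2 fold changes of -1.69 in DP (edgeR adjusted p = 0.0211) and -1.30 in SPR (edgeR adjusted p = 0.0382). Without 1 library the edgeR adjusted p reached 0.0675 for Hmox1 in DP, 0.0712 for Osgin1 in DP and 0.12 for Osgin1 in SPR.

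Of 9 relatives and coactivators of the bHLH-PAS family 6 were tested. Of these, 1 was higher in DP than in SPF, and 1 was higher and 2 lower in SPR than in SPF. Hif1a, the hypoxia factor that also pairs with ARNT, averaged 172 ± 37.9 CPM for DP, 195 ± 53.2 CPM for SPR and 39.5 ± 9.28 CPM for SPF (SD, n = 3 each). Its log2 fold change was 2.05 in DP (SE 0.263, edgeR adjusted p = 0.00104) and 2.29 in SPR (SE 0.263, edgeR adjusted p = 0.000401) against SPF. The coactivator Ncoa3 was higher in DP than in SPR within pairs (log2 fold change 0.71, SE 0.138, edgeR adjusted p = 0.0176, or up to 0.135 without 1 pair) and lower in SPR than in SPF (log2 fold change -0.56, SE 0.16, edgeR adjusted p = 0.0363, or up to 0.118 without 1 library). Ncoa2 was likewise lower in SPR than in SPF (log2 fold change -0.80, edgeR adjusted p = 0.0293, or up to 0.106 without 1 library).

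A list of 8 genes covered tryptophan uptake and use, including the kynurenine route, which can make AHR ligands. Wars, the tRNA synthetase gene for tryptophan, is outside that route. Of the 8 genes, 6 were in the table and 3, Slc7a5, Slc3a2 and Wars, were tested. None passed edgeR with the filter and TMM scaling in any comparison, and 0 had an unadjusted p under 0.05 in the comparisons over 9 libraries, against 1, Wars, within pairs (log2 fold change 0.56, SE 0.157, edgeR adjusted p = 0.0847, or 0.0273 with no filter). Ido1 had 0 counts in every library, Kynu had 2 counts in DP, 1 in SPR and 0 in SPF, and Il4i1 had 4 counts in DP, 10 in SPR and 9 in SPF.

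**Figure D5:**
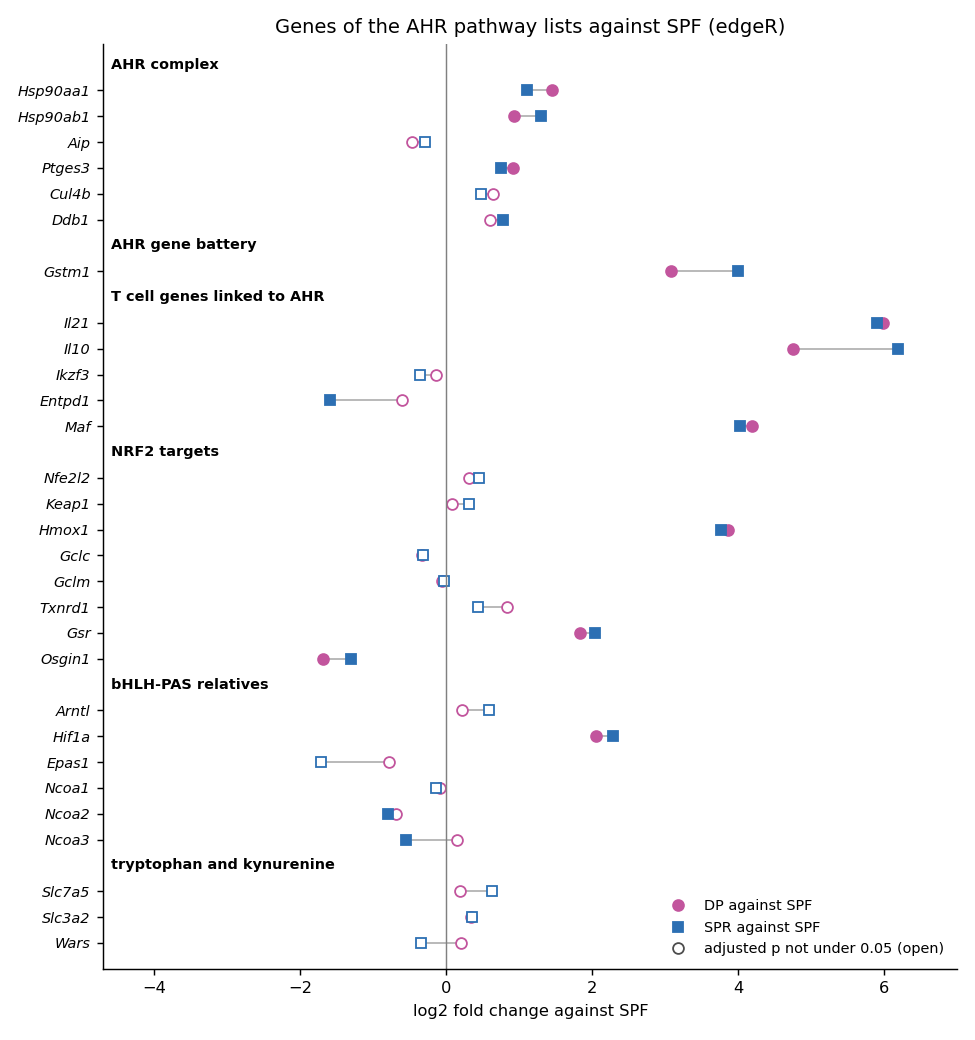
Log2 fold changes of the tested genes of the 6 lists in DP against SPF and in SPR against SPF, 1 point per gene and comparison, filled where the adjusted p was under 0.05. Among the 6 genes of AHR-binding proteins 3 points are filled in DP against SPF and 4 in SPR against SPF.

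The genes whose levels followed a member most closely were ranked by the root mean square difference of centred log2(CPM + 1) over the 9 libraries. For Ahr these were Selp at 0.333, Malt1 at 0.377, Klre1 at 0.379, Cdc42bpb at 0.381 and Adgra3 at 0.39. Selp, which encodes P-selectin, averaged 42.0 CPM in DP, 23.2 CPM in SPR and 2.92 CPM in SPF, and Malt1, a signalling protease of the T cell receptor, averaged 351 CPM in DP, 307 CPM in SPR and 51.2 CPM in SPF. For Tiparp they were Cd28, Cpd, Insr, B430306N03Rik and Maml2, at 0.4 to 0.431. For Cyp1b1 they were Chst15, Rfx8, Stom, Tmem37 and Rbpms2, at 0.359 to 0.536. Chst15, a sulfotransferase, averaged 19.3 CPM in DP, 5.03 CPM in SPR and 1.54 CPM in SPF. All genes of this ranking were chosen for likeness to a member over these same libraries, so a shared order of groups is a description only.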

How the data were processed

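RNA of sorted cells was measured in 9 libraries by MARS-seq, which sequences transcript 3′ ends. The authors deposited gene counts, not normalized, aligned to mm10. The submitters' notes name cutadapt, STAR, SAMtools and HTSeq, with versions, annotation, strand and molecular identifier settings not given in the sources used here. An unnamed line, which equals the column sums, and 1 column with no library were left out. Genes above 10 CPM in any library entered edgeR 4.0.16 (R 4.3.3, TMM scaling, quasi-likelihood, 9 libraries sharing 1 spread), with Benjamini-Hochberg adjustment and a threshold of 0.05. A second fit over DP and SPR had the replicate number as a block. Each SE given with edgeR was derived, as the absolute log2 fold change divided by the square root of the quasi-likelihood F statistic. Deviations of same-numbered DP and SPR libraries, sorted from 1 kind of culture, correlated at 0.222, 0.401 and 0.407, so the numbers were taken as pairs. Libraries of unlike number correlated at -0.341 to -0.026, and these values are linked to the former because each group was centred on its own mean. The labels give replicate numbers only and do not say whether libraries of 1 number came from 1 culture. Alternatives were DESeq2 1.42.0, no filter or one of 5 CPM, other scaling, fewer samples in the fit and left-out libraries, of which the filter of 5 CPM and the fit without DP libraries 2 and 3 were chosen after the data were examined. The fits were also run on simulated counts with 200 changed genes and 1 fixed spread for all genes. Real genes differ in spread, so that run checks the code and does not measure how often differences are found in these data. The text names, per list and comparison, up to 3 called genes with the largest absolute log2 fold change, and 5 genes per called member by likeness. Entpd1 against SPF, genes with few counts and the 3 tested tryptophan genes were named after their values were seen. Members and lists were chosen with earlier results of these data known. Intervals and the floor of 3 counts cover counting error only. The labels call replicates biological, and p-values measure the spread between these libraries. The genotype and the check of the GFP reporter against its transcript are not reported in full here.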

Additional observations from a re-analysis of the deposited data

How the results depend on the processing

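Ahr and Cyp1b1 passed in DP against SPF under all 15 alternatives, as did Ahr in SPR against SPF under all 14. The alternatives draw on the same libraries. For Cyp1b1 this is a description, since it passed the filter only through DP libraries and had 7 counts in SPF. Between DP and SPR, 0 members passed over 9 libraries, against 1 with DESeq2, which called 44 of 9310 genes, and 2 with no filter, which called 211 of 20041. With the replicate block over DP and SPR only, 2 passed (324 of 9307 genes), also 2 with no filter (646 of 19187) or with library totals alone (346 of 9307), 1 with DESeq2 (147 of 9307), and 1 to 2 when a pair was left out (120 to 447 genes). In pairs with no filter or with library totals alone, 1 tryptophan gene also passed. With the block over all 9 libraries, Cyp1b1 had an adjusted p of 0.153 and Cyp1a1 of 0.618. In SPR against SPF, 2 members passed, against 1 when only the groups compared entered the fit and 1 to 2 when a library was left out. Log2 fold changes that turned sign, none of them called, ran with 1 library or pair left out from -0.2967 to 0.0182 for Arnt in SPR against SPF (0.0181 without SPF replicate 1), from -0.2398 to 0.0967 for Arnt in DP against SPR (0.0771 without DP replicate 2, 0.0664 in pairs without replicate 2), from -0.453 to 1.0443 for Cyp1a1 in SPR against SPF (-0.1618 without SPR replicate 3, -0.0298 without SPF replicate 3) and from -1.9084 to 0.4612 for Nqo1 in SPR against SPF. Without DP libraries 2 and 3, which leaves 1 DP library assumed to vary like the other groups, 114 of 9310 genes were called in DP against SPF, against 1278 with all libraries. There Tiparp was at -0.1221 in DP against SPR and had an adjusted p of 0.277 in DP against SPF. It called 0 genes of the AHR-binding, detoxification and NRF2 lists in DP against SPF, at log2 fold changes of 1.47 for Hsp90aa1, 1.88 for Gsr, 3.22 for Hmox1 and -1.60 for Osgin1. The no-filter fit gave all genes 1 shared spread. The cause of these changes was not tested. Ahrr and Nqo1 are limited by their counts.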
